A study of Mus musculus with 15 samples.

Results

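The genes described here encode the protein components of the mitochondrial ribosome. They were chosen by symbol, as every protein-coding gene of the count table named Mrpl or Mrps followed by a number and at most 1 further letter. This rule took 78 of the 55450 genes of the table, 49 with an Mrpl symbol and 29 with an Mrps symbol. Of these, 77 passed the filter on low counts and were among the 15808 genes tested. The gene that did not pass was Mrpl53 (chromosome 6, 83109040 to 83109939), whose counts were 2, 3, 4, 4 and 13 in the Adult mice, 5, 4, 0, 5 and 2 in the Old mice and 2, 2, 3, 5 and 7 in the PDX mice. A count of 0 allows up to 3 counts. Of the exonic bases of Mrpl53, 88.0% are shared on the same strand with the gene Gm42688, so that its counts depend on how such reads were assigned.

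The mitochondrial ribosome translates the mRNAs of the mitochondrial genome, which encode core subunits of the respiratory chain and of ATP synthase. Its RNAs come from the mitochondrial genome, whereas all of its proteins are encoded in the nucleus, made in the cytosol and imported. The large subunit forms the peptide bond and holds the exit tunnel, and the small subunit binds the mRNA and reads its codons. Some of the proteins have counterparts in bacterial ribosomes and others are found only in mitochondria. The liver is rich in mitochondria and depends on them for urea synthesis, ketone production and fatty acid oxidation. A symbol does not always give the subunit. The products of Mrps30 and Mrps18a sit in the large subunit, and Mrps36 is now known as a subunit of the 2-oxoglutarate dehydrogenase complex of the citric acid cycle. By structure, 50 of the genes tested belonged to the large subunit and 26 to the small subunit, and by ancestry 46 had bacterial counterparts and 30 were specific to mitochondria.

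The livers came from 15 C57BL/6 females in 3 groups of 5, and each mouse gave 1 mRNA library. Adult mice, A1 to A5, started at 6 months of age and Old mice, O1 to O5, at 22 months, and both groups were gavaged daily with 120 µL of corn oil. PDX mice, P1 to P5, also started at 22 months and received protectin DX, a lipid mediator derived from docosahexaenoic acid, in corn oil at 30 ng per g of body weight. Gavage lasted 8 weeks by the design text and 9 weeks by the protocol. All mice were of 1 sex and 1 strain, no group lacked the vehicle and no group of Adult mice received protectin DX. Positive frailty criteria numbered 1 in O1, 3 in O2 and O3 and 4 in O4 and O5, where the study classed 3 or more as frail and 0 or 1 as robust. They numbered 0, 2, 2, 3 and 4 in P1 to P5, 0 in A1 to A4 and 1 in A5. Counted read pairs ranged from 22424383 to 36070835 per mouse, and the 78 genes took 0.212% ± 0.00560 of them in Adult, 0.199% ± 0.0164 in Old and 0.200% ± 0.0128 in PDX (mean ± SD, n = 5 each).

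The whole tissue was sequenced, and the summed levels of marker genes showed how the libraries differed. The 8 hepatocyte markers (Alb, Apoa1, Ttr, Cps1, Hnf4a, Serpina1c, Tat, Cyp2e1) were all expressed. Their summed CPM, counts scaled to a common library size, ranged from 132000 to 144400 in Adult and from 111800 to 165300 in PDX, and were 205100, 77060, 131800, 165500 and 61970 in O1 to O5. O2 also had the highest macrophage sum, 3294 CPM against 457 to 689 in Adult, and the highest sum of proliferation genes, 147 CPM against 5.33 to 9.04. Its scaling factor by the trimmed mean of M-values (TMM) was 1.33, against 0.885 to 1.08 in the other 14 mice. Between Old and Adult, 1 of 8 hepatocyte markers was called lower, Cyp2e1 (all genes tested 2.07%). Called higher were 4 of 5 neutrophil, 3 of 5 B cell, 3 of 6 stellate cell and 1 of 6 proliferation genes (all genes tested 4.71%). Fewer cells of a type and less RNA per cell cannot be told apart in such libraries.

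The start regions of these genes were searched for short motifs, some of which are known from nuclear genes for mitochondrial proteins. RefSeq promoter windows of 300 bases (250 before and 50 after an annotated start, GRCm38.p6) were matched by symbol for 69 of the 78 genes, with 75 windows in all. The nuclear respiratory factor 1 motif (GCGCA, any base, then GCGC), searched on both strands as were all motifs, was in 17.3% of these windows and in 4.60% of all 32851 windows of that length. The motif of the ETS family, to which GABP belongs, CCGGAAG, was in 34.7% of them against 8.86% of all. The YY1 motif AAGATGGCG was in 10.7% against 1.40%. The E-box CACGTG, read by Myc and USF, was in 9.33% against 7.15%. For the GC-box GGGCGG the shares were 52.0% and 35.7%, for CCAAT 40.0% and 37.4% and for TATAAA 6.67% and 13.6%. None of these motifs contains another, but matches to different motifs can overlap. The median GC content was 58.7% in the members' windows and 52.7% in all windows. A match is a run of letters and not a measured site of binding.

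To show what such matches look like, the 150 bases before the RefSeq start are printed for 6 genes described below, 5′ to 3′ on the strand of the gene. Capitals mark matches to the nuclear respiratory factor 1, ETS, YY1 or E-box motifs on either strand. Mrps18a is shown as the gene called between Old and Adult, Mrpl12 as the gene with the highest level per length, Mrpl9 and Mrps27 for their differences between PDX and Adult, and Mrpl20 and Mrps21 as genes with opposite signs in Old.
Mrps18a, chr17:46110854-46111003, plus strand: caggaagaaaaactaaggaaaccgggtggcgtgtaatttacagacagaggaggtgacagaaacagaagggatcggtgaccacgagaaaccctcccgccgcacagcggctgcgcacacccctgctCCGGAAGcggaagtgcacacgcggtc
Mrps27, chr13:99344636-99344785, plus strand: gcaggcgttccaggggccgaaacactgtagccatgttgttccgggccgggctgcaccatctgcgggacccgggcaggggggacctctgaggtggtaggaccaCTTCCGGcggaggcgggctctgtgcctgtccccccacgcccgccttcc
Mrpl12, chr11:120484487-120484636, plus strand: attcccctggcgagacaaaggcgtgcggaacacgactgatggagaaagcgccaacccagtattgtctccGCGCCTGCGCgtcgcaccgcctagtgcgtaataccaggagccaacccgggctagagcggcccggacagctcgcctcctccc
Mrpl9, chr3:94443186-94443335, plus strand: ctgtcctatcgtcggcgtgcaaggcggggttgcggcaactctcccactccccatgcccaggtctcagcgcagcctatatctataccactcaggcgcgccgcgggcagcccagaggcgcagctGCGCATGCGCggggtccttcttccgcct
Mrps21, chr3:95871515-95871664, minus strand: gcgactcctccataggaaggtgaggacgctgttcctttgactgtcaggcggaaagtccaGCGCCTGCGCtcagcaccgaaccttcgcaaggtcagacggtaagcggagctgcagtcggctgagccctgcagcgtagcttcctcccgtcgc
Mrpl20, chr4:155802728-155802877, plus strand: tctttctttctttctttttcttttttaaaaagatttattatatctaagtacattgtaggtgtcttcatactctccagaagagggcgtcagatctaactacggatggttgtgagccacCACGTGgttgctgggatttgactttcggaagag
The ETS match began 26 bases before the start of Mrps18a and 48 bases before that of Mrps27. The respiratory factor match began 81, 28 and 91 bases before the starts of Mrpl12, Mrpl9 and Mrps21. The E-box of Mrpl20 began 33 bases before its start. The median log2 fold change of Old over Adult was -0.19 for the 13 genes with the respiratory factor motif. It was -0.11 for the 25 with the ETS motif and -0.16 for the 8 with the YY1 motif. For the 28 genes with none of the respiratory factor, ETS and YY1 motifs the median was -0.14, within the range of the motif groups. A link between motif and change was not tested.

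Levels differed widely between the genes. On the scale of CPM per kilobase of exonic length, averaged over the 15 mice, the median gene stood at 9.89. Mrpl12, which also binds and stimulates the mitochondrial RNA polymerase, was highest at 53.0 CPM per kilobase, followed by Mrpl14 at 42.1 and Mrpl2 at 38.3, both core proteins of bacterial ancestry. The lowest levels were 0.330 for Mrpl23, a protein of the exit tunnel rim, 1.51 for Mrps36 and 1.85 for Mrpl48. These ranks depend on the exonic length, which was 8152 bases for Mrpl48 (15.1 CPM in Adult). They also depend on unique alignment. Of the 50-base runs in their transcripts, 11.6% for Mrpl23 and 17.3% for Mrps36 also occur in transcripts of other genes.

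Old was compared with Adult to find what age changed. Of the 77 genes, 1 fell and 0 rose at an adjusted p of 0.05 (edgeR's quasi-likelihood test, Benjamini-Hochberg over all genes tested). Over all genes tested, 2.07% were called lower and 4.71% called higher. DESeq2 called that gene, Mrps18a, lower (all genes 3.84%) and 1 gene higher, Mrpl54 (all genes 9.62%), and the fit of the 10 Adult and Old mice alone called none (all genes 0.146% lower and 0.552% higher). At an unadjusted p of 0.05, 6 of the 77 were lower and 1 was higher, where 9.81% and 17.9% of all genes were. The fitted log2 fold change was negative for 62 of the 77 genes (80.5%), against 43.2% of all genes, with a median of -0.14 against 0.07. With scaling by library totals 54 were negative, and with upper-quartile scaling 61. The fold changes ran from -0.69 to 0.46, and their median standard error was 0.16, about as large as the median change itself.

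**Figure D1:**
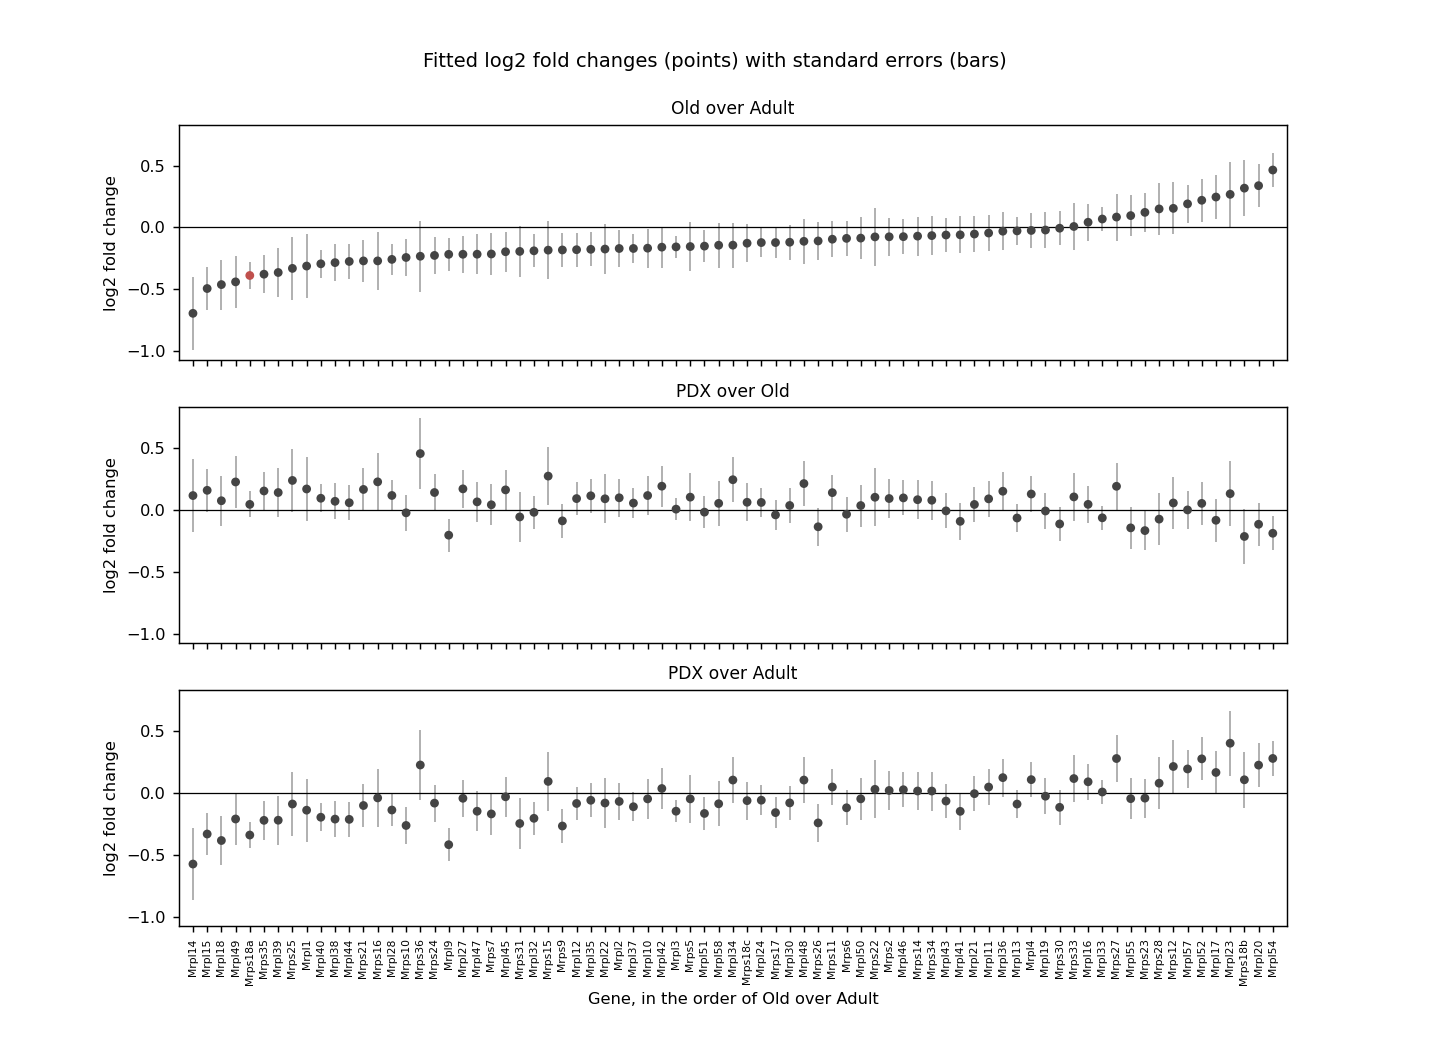
Log2 fold change (points) and standard error (bars) of the 77 genes tested, 1 panel per comparison, in the order of Old over Adult. The red point is Mrps18a, the 1 gene called between Old and Adult, and 62 points of the upper panel, 22 of the middle panel and 50 of the lower panel lie below 0.

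The gene that fell was Mrps18a (chromosome 17, 46110986 to 46128910), one of 3 paralogues related to the bacterial S18 protein, whose product is built into the large subunit and was counted here as specific to mitochondria. Its CPM were 26.6, 28.6, 27.2, 24.9 and 27.6 in A1 to A5, 23.4, 18.4, 21.4, 22.4 and 17.6 in O1 to O5 and 22.1, 18.8, 21.0, 20.4 and 24.1 in P1 to P5. All Old mice and all PDX mice lay below all Adult mice. The group means were 27.0 ± 1.39 CPM in Adult, 20.6 ± 2.54 in Old and 21.3 ± 1.99 in PDX (SD, n = 5 each). The log2 fold change was -0.39 ± 0.11 (SE) for Old over Adult, with an edgeR adjusted p of 0.0415. The call was near the threshold. It was lost in 10 of the 15 fits without 1 mouse, those without any of A1 to A5, O2 or P1 to P4, where the adjusted p was 0.0502 to 0.101. Over all 24 alternatives it ranged from 0.0097 with DESeq2 to 0.147 in the fit of the 10 Adult and Old mice, and 7 of them were past the threshold. Its paralogues in the small subunit gave other values: 0.32 ± 0.23 for Mrps18b and -0.13 ± 0.15 for Mrps18c, neither past the threshold. The exons of Mrps18c partly overlap those of the gene Gm43511 on the same strand.

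In the large subunit, 41 of 50 genes had a negative log2 fold change in Old, with a median of -0.15. The most negative values belonged to Mrpl14, Mrpl15 and Mrpl18, core proteins of bacterial ancestry, none of them past the threshold. Mrpl14 (chromosome 17, 45686322 to 45698495) measured 50.0, 54.1, 51.5, 51.2 and 54.7 CPM in A1 to A5, 43.6, 26.9, 40.1, 41.5 and 9.70 in O1 to O5 and 27.3, 28.1, 35.5, 37.1 and 47.3 in P1 to P5. Both older groups lay below all Adult mice, with O5 far below the other Old mice. The fold change was -0.69 ± 0.29 on the log2 scale, with an adjusted p of 0.140, and -0.31 without O2 and O5. Mrpl15 (chromosome 1, 4773206 to 4785739) measured 61.9, 62.8, 65.0, 60.8 and 63.0 CPM in A1 to A5 and 53.8, 30.7, 56.7, 51.6 and 29.9 in O1 to O5. Its Old mice were again all below the Adult mice, O2 and O5 most, with a fold change of -0.49 ± 0.17 and an adjusted p of 0.0827, which became 0.0391 without O3. For Mrpl18 the Adult range was 51.3 to 63.4 CPM, and the Old mice had 55.0, 42.5, 41.2, 54.8 and 20.2. Here the groups overlapped, at a fold change of -0.46 ± 0.20 and an adjusted p of 0.152. Mrps18a, Mrpl14 and Mrpl15 were the 3 of 77 genes whose Old mice all lay below the Adult mice, where 4.48% of all genes did so. No gene had all Old mice above, against 3.65% of all genes.

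The most positive values of the large subunit were those of Mrpl54, Mrpl20 and Mrpl23. Mrpl54 (chromosome 10, 81264713 to 81266934), a protein specific to mitochondria, measured 11.3, 13.3, 11.7, 10.5 and 11.1 CPM in A1 to A5, 20.2, 12.9, 14.0, 17.3 and 15.3 in O1 to O5 and 14.7, 12.4, 15.0, 16.2 and 11.7 in P1 to P5. Only O2 among the Old mice lay within the Adult range. The fold change of 0.46 ± 0.14 missed the threshold at an adjusted p of 0.0556 and passed it in 6 of 24 alternatives, among them those without O2 (0.0406), O3 (0.0366) or O5 (0.0418) and DESeq2 (0.0218), with a range of 0.0218 to 0.129 over the 24. Mrpl20 (chromosome 4, 155802878 to 155809975), a bacterial-type protein, stood between 23.7 and 28.3 CPM in Adult and at 40.1, 22.9, 22.2, 32.1 and 44.6 in O1 to O5. O2 and O3 lay below the whole Adult group and O1, O4 and O5 above it, and the fold change was 0.34 ± 0.18 (adjusted p = 0.225). Mrpl23 had 0.956 to 2.25 CPM over the 15 mice and a fold change of 0.27 ± 0.26. Mrpl12, the most abundant gene per length, measured 83.2, 88.6, 84.6, 85.8 and 89.1 CPM in A1 to A5 and 90.8, 50.8, 67.7, 85.1 and 86.5 in O1 to O5. O1 was above the Adult range, O2 and O3 were below it and O4 and O5 within it (-0.18 ± 0.14). For Mrpl58, a peptidyl-tRNA hydrolase that became a ribosomal protein, the fold change was -0.14 ± 0.18, and for Mrps30, a protein of the large subunit despite its symbol, it was -0.0060 ± 0.14.

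**Figure D2:**
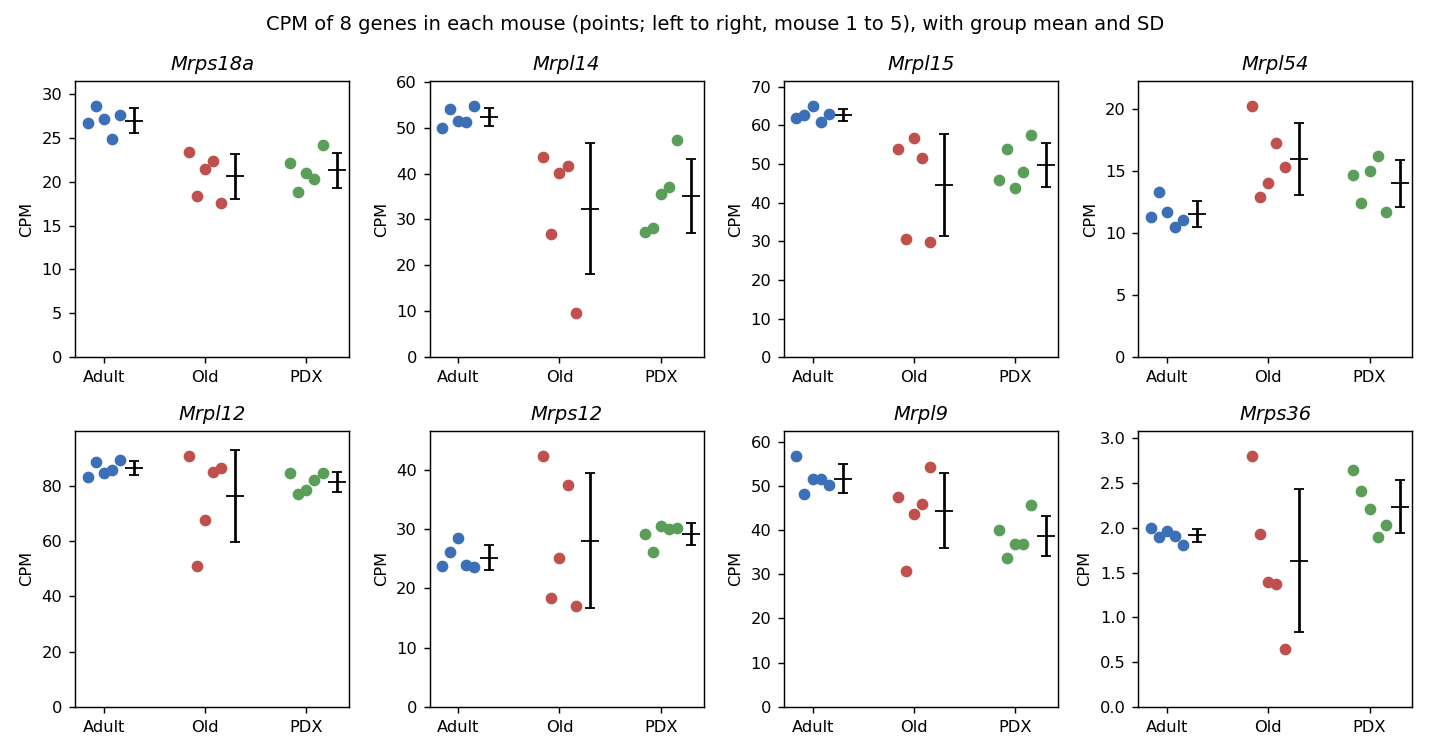
CPM of 8 genes in each mouse (points, mouse 1 to 5 from left to right), with the mean and SD of the group to their right (n = 5 each). Mrps18a, Mrpl14 and Mrpl15 have no overlap between Adult and Old, and the Old points spread more widely than the Adult points in all 8 panels.

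In the small subunit, 20 of 26 genes had a negative log2 fold change in Old, the median was -0.12, and none passed the threshold. The most negative were Mrps35 (-0.38 ± 0.16, adjusted p = 0.131), Mrps25 (-0.33 ± 0.26) and Mrps21 (-0.27 ± 0.17). The CPM of Mrps25 were 13.4, 13.0, 10.5, 14.0 and 3.64 in O1 to O5 and 11.7 to 15.3 in Adult, so that its low mean in Old came with 1 mouse, O5. Mrps21 stood at 28.3, 20.4, 18.1, 24.3 and 11.8 CPM in O1 to O5, with O2, O3 and O5 below the Adult range of 23.6 to 26.3. The most positive were Mrps18b, Mrps12 and Mrps28. Mrps12 (chromosome 7, 28739641 to 28741820), a protein of the decoding centre, measured 23.8, 26.2, 28.5, 23.9 and 23.7 CPM in A1 to A5, 42.4, 18.4, 25.1, 37.5 and 17.0 in O1 to O5 and 29.2, 26.1, 30.6, 30.0 and 30.2 in P1 to P5. O1 and O4 were above all Adult mice and O2 and O5 below them, for a fold change of 0.15 ± 0.21 that was -0.02 without O1. Mrps28 was alike, with 28.1, 10.7, 16.2, 20.0 and 12.5 CPM in O1 to O5, 13.6 to 17.6 in Adult, 0.15 ± 0.21 over all mice and -0.07 without O1. Mrps18b, a small-subunit protein, had 16.3 to 19.1 CPM in Adult and 25.0, 12.4, 13.5, 26.5 and 33.9 in O1 to O5, above the Adult range in O1, O4 and O5 and below it in O2 and O3. Ancestry split the genes little, with 38 of 46 bacterial-type genes negative at a median of -0.15 and 23 of 30 mitochondria-specific genes negative at a median of -0.11.

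The Old mice disagreed with each other more than the groups did. The median over the 77 genes of the log2 difference from the Adult mean was 0.26 in O1, -0.51 in O2, -0.26 in O3, 0.07 in O4 and -0.32 in O5. The Adult mice lay between -0.05 and 0.10 and the PDX mice between -0.11 and 0.01. Below every Adult mouse were 68 of the 77 genes in O2 (88.3%, all genes 35.3%), 60 in O3 (77.9%, all genes 26.9%) and 52 in O5 (67.5%, all genes 39.4%). Above every Adult mouse were 52 genes in O1 (67.5%, all genes 30.3%), 28 in O4 (36.4%, all genes 26.0%) and 13 in O5 (16.9%, all genes 39.1%). O1 was the highest of the Old mice for 55 of the 77 genes (71.4%, all genes 19.0%). The lowest was O2 for 43 genes (55.8%, all genes 18.9%), O5 for 25 (32.5%, all genes 35.1%) and O3 for 9 (11.7%, all genes 15.4%). As a group, the per-mouse medians were 0.00 ± 0.06 in Adult, -0.15 ± 0.31 in Old and -0.05 ± 0.05 in PDX (SD, n = 5 each). In O2 the value depended on the scaling, and with library totals in place of TMM factors it was -0.07, while the median of all genes in that mouse moved to 0.45. Among the Old mice the summed hepatocyte markers were also highest in O1 and O4 and lowest in O2 and O5. The order was not the same throughout. The sum was lowest in O5, but the median was lowest in O2. O3 had a sum of 131800 CPM, against 132000 to 144400 in Adult. P4 and P5 had sums of 165300 and 162800 CPM at medians of -0.06 and 0.01. The part of the hepatocyte markers in these differences was not tested.

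**Figure D3:**
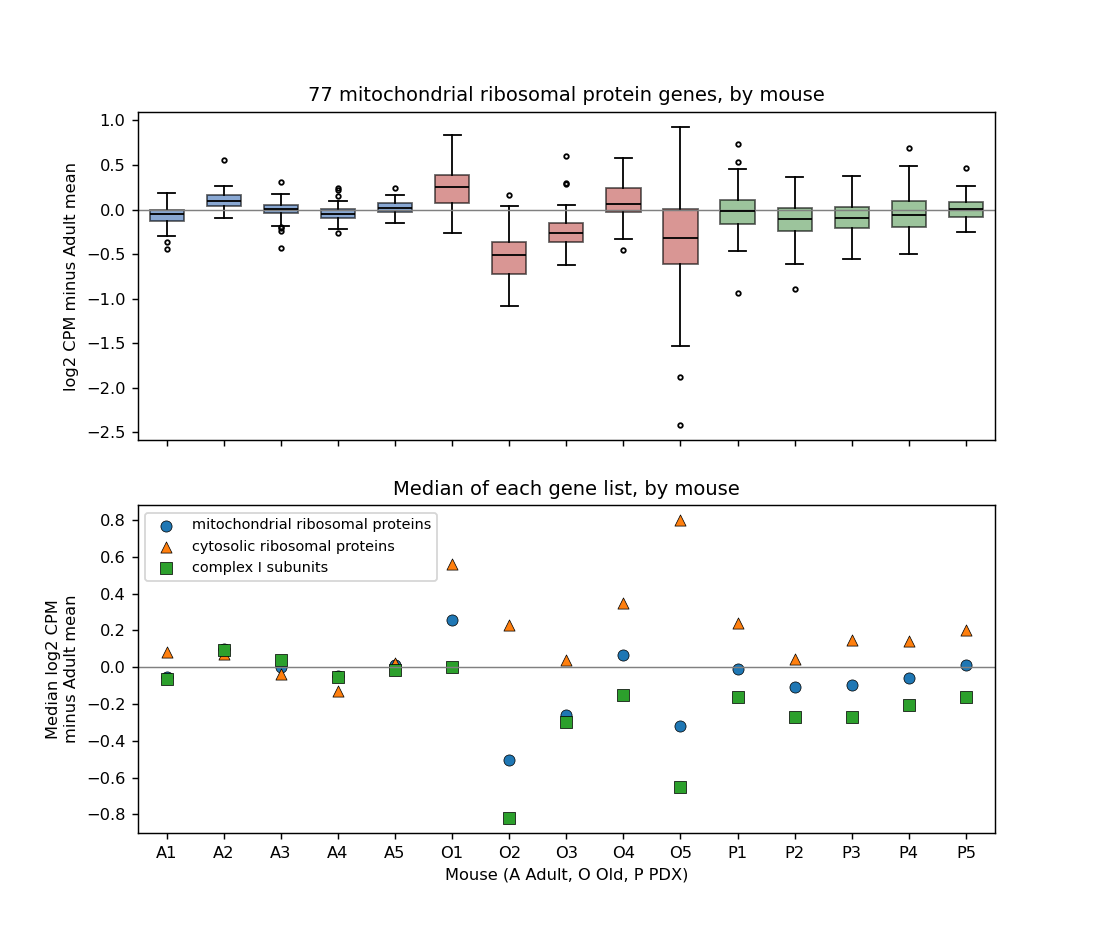
Upper panel, box plots of the log2 CPM of the 77 genes minus the Adult mean of each gene, per mouse (line, median; box, quartiles; whiskers, 1.5 times the box; circles, genes beyond). Lower panel, per-mouse medians of the same quantity for 3 gene lists, in which O2 lies at -0.51 for the mitochondrial ribosomal proteins, 0.23 for the cytosolic ribosomal proteins and -0.82 for complex I.

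The spread within groups showed the same pattern gene by gene. The median SD of log2 CPM over the 77 genes was 0.105 in Adult, 0.381 in Old and 0.119 in PDX, against 0.205, 0.525 and 0.227 over all genes. The SD was larger in Old than in Adult for 76 of the 77 genes (98.7%, all genes 90.4%) and larger in Old than in PDX for 74 (96.1%, all genes 89.1%). Without O2 and O5 the median SD of the genes in Old was 0.259, against 0.277 over all genes. In the fit without O2 and O5 the median log2 fold change of Old over Adult turned to 0.05 (all genes 0.01), with 30 of 77 genes negative. That fit called 2 genes higher (Mrpl54 and Mrps12; all genes 4.85%) and 0 lower (all genes 2.26%). Without O2 alone the median was -0.04, with 47 genes negative. Without O3 alone 54 genes were negative, as many as without O5 alone, and without O1 or O4 alone 66 and 65 were. The excess of negative signs in Old over Adult therefore depended on which Old mice were in the fit.

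**Figure D4:**
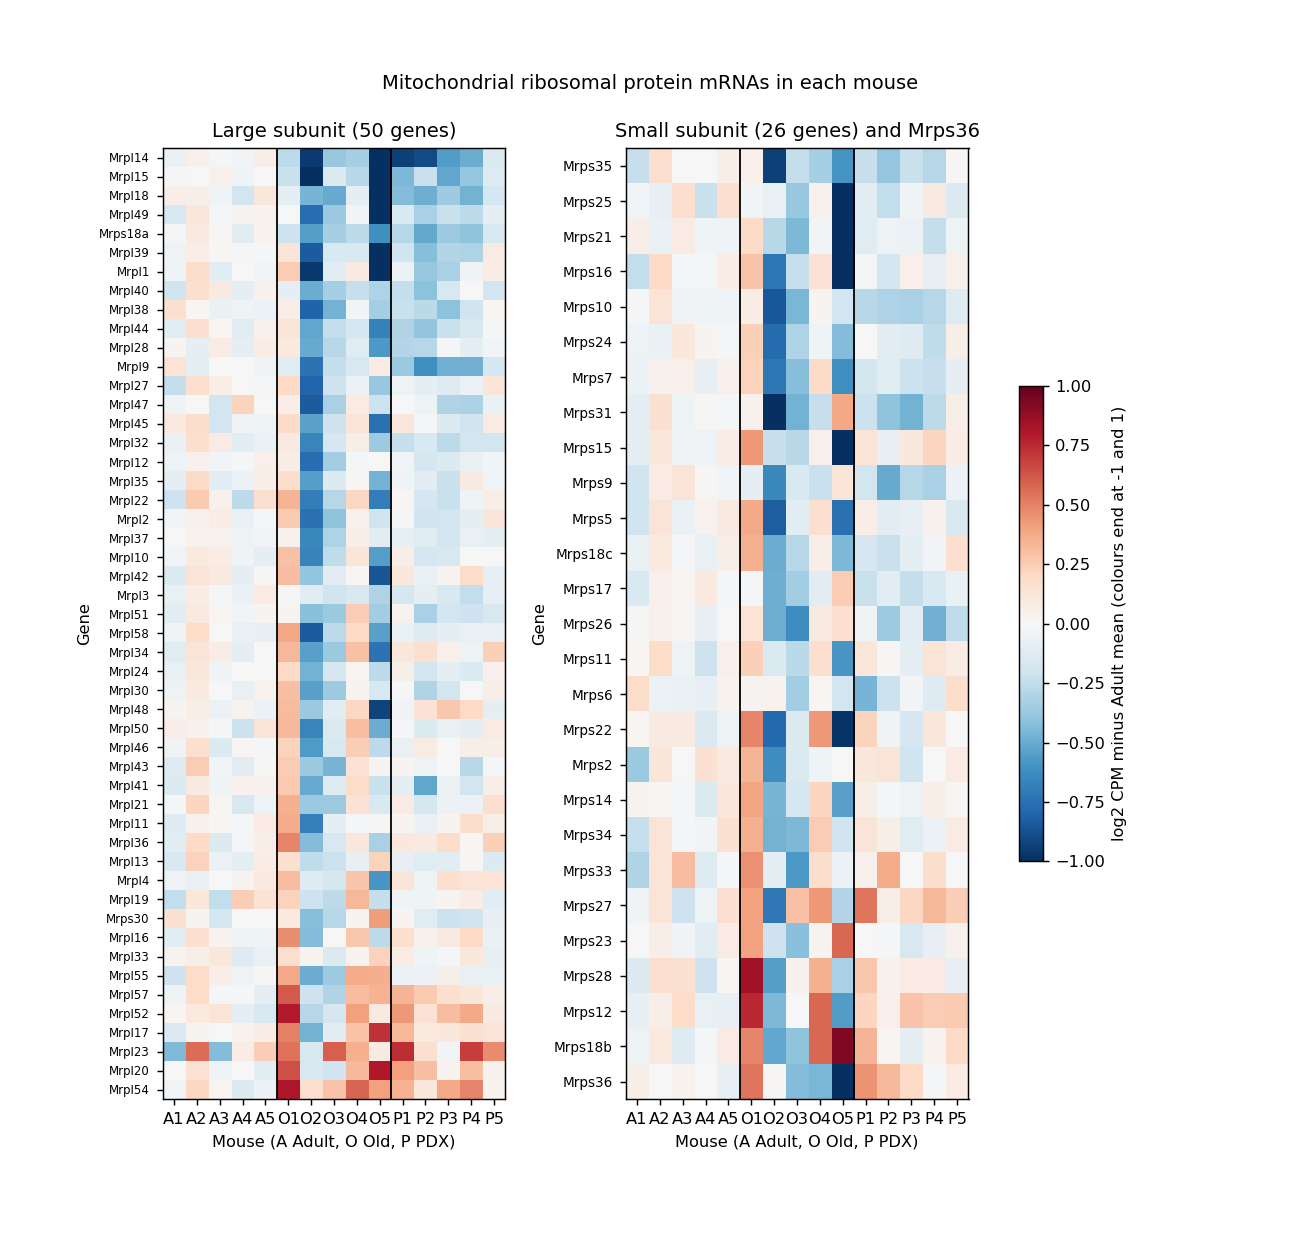
Log2 CPM of each gene in each mouse minus the Adult mean of that gene, by subunit, with genes in the order of Old over Adult and Mrps36 in the last row on the right. Blue is lower and red higher than the Adult mean, with the colours ending at -1 and 1, and the columns of O2, O3 and O5 are mostly blue while that of O1 is mostly red.

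PDX was compared with Old to find what protectin DX changed in old mice. No gene of the 77 passed an adjusted p of 0.25, the threshold the study used for this comparison, and the smallest adjusted p was 0.792. By the same test 0.0% of all genes were called in either direction, DESeq2 called none of the 77 (all genes 0.00344% higher and 0.0% lower), and no gene of the 77 reached an unadjusted p of 0.05 (all genes, 1.04% higher and 4.23% lower). The log2 fold change was positive for 55 genes and negative for 22 (28.6%, all genes 59.9%), and the median was 0.07 against -0.07 over all genes. For 0 of the 77 genes did the PDX and Old mice not overlap, as for 0.145% of all genes above and 0.196% below. The comparison shares the Old mice with the one above, and without O2 and O5 the median was -0.08 with 70 genes negative.

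For PDX over Old, the largest positive values were 0.46 ± 0.29 for Mrps36, 0.27 ± 0.24 for Mrps15 and 0.25 ± 0.18 for Mrpl34, and that of Mrpl34 was -0.01 without O2 and O5. Mrps36, the dehydrogenase subunit (chromosome 13, 100735955 to 100744659), measured 2.00, 1.90, 1.96, 1.90 and 1.81 CPM in A1 to A5, 2.80, 1.93, 1.40, 1.38 and 0.649 in O1 to O5 and 2.64, 2.41, 2.21, 1.89 and 2.03 in P1 to P5. O1 was the highest of all 15 mice and O5 the lowest, and the PDX mice lay between them. Mrps15, a small-subunit protein of bacterial ancestry, had 27.9, 17.6, 17.0, 21.4 and 7.25 CPM in O1 to O5 and 19.5 to 24.0 in PDX, so that O5 alone stood far from the PDX range. The largest negative values were -0.21 ± 0.23 for Mrps18b, -0.20 ± 0.13 for Mrpl9 and -0.19 ± 0.14 for Mrpl54.

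PDX was also compared with Adult, groups that differed in age and agent together. No gene of the 77 was called, against 1.76% of all genes called higher and 0.898% called lower. At an unadjusted p of 0.05, 2 genes were lower, Mrpl9 and Mrps18a, and 0 higher (all genes 9.41% and 11.2%). DESeq2 called 1 of them lower, Mrps18a (all genes 2.84%), and 0 higher (all genes 4.53%). The log2 fold change was negative for 50 of the 77 genes (64.9%, all genes 51.6%), with a median of -0.06 against -0.01 over all genes. All PDX mice lay below all Adult mice for 9 genes (Mrpl3, Mrpl9, Mrpl14, Mrpl15, Mrpl32, Mrpl37, Mrps7, Mrps10 and Mrps18a; all genes 9.34%) and above them for 1, Mrpl17 (all genes 10.5%).

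Mrpl9 (chromosome 3, 94443318 to 94451130), a bacterial-type protein of the large subunit, measured 56.8, 48.0, 51.4, 51.6 and 50.2 CPM in A1 to A5, 47.5, 30.8, 43.6, 46.0 and 54.2 in O1 to O5 and 39.9, 33.6, 36.9, 36.8 and 45.6 in P1 to P5. The PDX mice were all below the Adult mice, while O5 lay inside the Adult range. Its log2 fold change of PDX over Adult was -0.42 ± 0.13 (adjusted p = 0.103). The other values at the ends of the order were -0.58 ± 0.29 for Mrpl14, -0.39 ± 0.20 for Mrpl18, 0.40 ± 0.26 for Mrpl23, 0.28 ± 0.14 for Mrpl54 and 0.28 ± 0.19 for Mrps27, a small-subunit protein with pentatricopeptide repeats. Mrps27 had 35.1, 39.6, 31.2, 34.7 and 40.3 CPM in A1 to A5 and 52.1, 37.4, 41.5, 45.3 and 42.7 in P1 to P5, and these groups overlapped.

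The counts of calls between PDX and Adult depended on which Old mice were in the fit, where they bear on the estimate of the spread, the filter and the scaling. With the 10 Adult and PDX mice alone, 6 genes were called lower (Mrpl9, Mrpl14, Mrpl15, Mrpl18, Mrps10 and Mrps18a) and 3 higher (Mrpl52, Mrps12 and Mrps27). In that fit 13.5% of all genes were called lower and 16.1% called higher. The fit without O2 and O5 called 5 lower and 1 higher, against 10.2% and 14.4% of all genes. The fit without O5 alone called 4 lower (Mrpl9, Mrpl14, Mrpl18 and Mrps18a; all genes 5.53%) and 0 higher (all genes 5.35%), and that without O2 alone 1 lower, Mrpl9 (all genes 3.29%), and 0 higher (all genes 7.76%). In each of these fits the share of the 77 genes that was called stood near or below that of all genes.

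The other genes of mitochondrial translation were negative in Old over Adult more often than positive. Mitoribosomal proteins with other symbols (Dap3, Ptcd3, Chchd1, Aurkaip1 and Gadd45gip1) were negative in Old over Adult in 5 of 5 cases, with a median of -0.22 and 0 calls. Of 12 translation factors 9 were negative and 0 called, among them Mtif3, an initiation factor, at -0.43 (adjusted p = 0.169). Of 22 mitochondrial aminoacyl-tRNA synthetases 14 were negative and 2 were called lower (all genes 2.07%). These were Nars2, for asparagine, which fell from 19.8 ± 1.21 to 12.3 ± 3.85 CPM (-0.69, adjusted p = 0.0444), and Hars2, for histidine, which fell from 32.2 ± 1.98 to 23.3 ± 4.60 CPM (-0.47, adjusted p = 0.0475). Of 26 assembly factors 17 were negative and 0 called, though with scaling by library totals 13 were negative and 13 positive. Without O2 and O5, 4 of 5, 8 of 12, 16 of 22 and 12 of 26 genes of these lists were positive. In that fit 1 synthetase, Nars2, was called lower (all genes 2.26%). With upper-quartile scaling 0 synthetases were called.

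Among genes for the expression of the mitochondrial genome, 18 of 19 were negative and 0 called. Polg2, the accessory subunit of the mitochondrial DNA polymerase, stood at -0.76 (adjusted p = 0.0592) and Tfam, which packages mitochondrial DNA and starts its transcription, at -0.34 (adjusted p = 0.0812). Of 18 import genes 10 were negative and 0 called, with 9 on each side when library totals were used. Of 7 mitochondrial stress genes 4 were positive and 0 called. Of 10 nuclear regulators 8 were positive and 0 called, with the highest level of Pprc1, a coactivator of the PGC-1 family, in O5 (61.1 CPM, Adult 14.4 ± 0.962). The smallest p among them was that of Myc (1.38, adjusted p = 0.102). Its CPM were 5.22, 18.0, 11.2, 4.20 and 30.8 in O1 to O5 and 2.73 to 11.5 in Adult. Without O2 and O5, 14 of the 19 expression genes were negative and 7 of the 10 regulators were negative. In that fit 1 expression gene was called lower (all genes 2.26%), Hsd17b10, named after its value was seen. For PDX over Old, none of these lists had a gene past 0.25. In that comparison all 10 regulators were negative with a median of -0.49, while without O2 and O5 6 were positive with a median of 0.03.

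The respiratory chain subunits, which assemble with the products of this ribosome, had more negative medians in Old than the ribosomal proteins. Of 36 nuclear subunits of complex I, 35 were negative with a median of -0.37, and 2 were called lower (all genes 2.07%). These were Ndufab1 (-0.41, adjusted p = 0.0405) and Ndufs5 (-0.53, adjusted p = 0.0488). Of 11 subunits of complex IV all 11 were negative with a median of -0.32. Again against 2.07% of all genes, 1 was called lower, Cox6c (-0.40, adjusted p = 0.0438). Of 14 subunits of complex V 13 were negative with a median of -0.36 and 0 called. Without O2 and O5, where 47 of the 77 mitoribosomal genes were positive, 30 of 36, 11 of 11 and 14 of 14 subunits were negative, with medians of -0.15, -0.24 and -0.17. In that fit 0, 1 (Cox7a2l, named after its value was seen) and 0 were called lower, against 2.26% of all genes. The calls moved with the scaling, to 1 gene of complex I and 0 of complex IV with relative log expression factors, 0 and 0 with upper-quartile scaling and 3 and 3 with library totals. With library totals the 3 of complex I were Ndufb3, Ndufb8 and Ndufb9, and neither Ndufab1 nor Ndufs5 was among them. In complex V 1 gene, Atp5k, was called lower with library totals. The share of all genes called with these scalings is not given here.

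The ribosome of the cytosol stood on the other side of 0. Of 77 cytosolic ribosomal protein genes tested (Rpl and Rps), 74 were positive in Old over Adult, with a median of 0.42. Negative were 3 of the 77, against 43.2% of all genes. Of the 77, 20 were called higher (all genes 4.71%) and 0 lower (all genes 2.07%). With scaling by library totals 31 were called higher, and the share of all genes called with that scaling is not given here. In O2 and O5, where the mitochondrial genes stood at -0.51 and -0.32, the median of the cytosolic genes was 0.23 and 0.80. In O1 and O4 both lists were above 0, at 0.26 and 0.07 for the mitochondrial genes and 0.56 and 0.35 for the cytosolic genes. O3 had -0.26 and 0.04. Without O2 and O5, 65 of the 77 cytosolic genes were positive with a median of 0.35. No difference between lists was tested. In PDX over Old 75 of the 77 cytosolic genes were negative, with a median of -0.28 and 0 calls at 0.25.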

How the data were processed

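Liver mRNA of 15 mice was sequenced as paired ends of 50 bases, with 1 poly(A)-selected, strand-specific library per mouse. The authors aligned the reads with STAR 2.6.0c to mm10 and made counts of uniquely aligned read pairs per Ensembl gene with featureCounts (Subread 1.6.2), leaving out mitochondrial genes. These counts were deposited raw. A further deposited table holds log2-scale values that the authors made with the variance-stabilizing transformation of DESeq2 1.23.10. Columns without a mouse numbered 0.

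Symbols and coordinates came from GENCODE M21 (GRCm38), which named 55190 of 55450 genes, and exonic length is that of the union of exons. Counts were fitted with edgeR 4.0.16 in R 4.3.3 (filterByExpr by group, minimum count 10 and minimum total 15, TMM, quasi-likelihood test, 1 coefficient per group, all 15 mice). The adjusted p-values are edgeR's after Benjamini-Hochberg correction over all genes tested, two-sided, called under 0.05, or under 0.25 for PDX over Old. The standard error is the fold change divided by the root of F, and log2 CPM used a prior count of 2. The scripts were tested on simulated data. No pair of libraries within a group agreed within sampling noise. Mice carried separate labels, so that the p-values measure the spread between animals of 1 experiment. No batch is given per mouse in the labels.

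The alternatives were DESeq2 1.42.0, relative log expression factors, no filter, 10-mouse fits, limma 3.58.1 on the deposited log2-scale values, a replicate block, each mouse left out, and O2 and O5 left out. Scaling by library totals and by the upper quartile was chosen after seeing the data.

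The genes and lists were chosen with earlier results of these data known. The text names genes past the threshold, the 3 largest and 3 smallest fold changes (of Old over Adult in each subunit), the 3 smallest p of PDX over Old, the 3 highest and 3 lowest levels per length, genes with a role beyond the ribosome or a misleading symbol, the gene below the filter and, of each related list, some of the 3 smallest p-values. Genes whose groups do not overlap, or that were called in an alternative only, were named after their values were seen. Promoter windows came from the RefSeq table of GRCm38.p6, where 9 genes had no entry. Cytosolic ribosomal proteins were taken by symbol.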

Additional observations from a re-analysis of the deposited data

Results flagged for a closer look

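Within the Old group, 1 mouse stood far from the other 4 for 2 of the genes named above. Log2 CPM of Mrpl18 was 4.34 in O5 and 5.37 to 5.78 in the others, a gap of 0.712 of the whole range. Log2 CPM of Mrps25 was 1.89 in O5 and 3.40 to 3.82 in the others, a gap of 0.782 of the range. Dixon's critical value for 5 samples is 0.710. Of 72 groups of 5 mice tested for the named genes, 2 passed it, and of 231 over all 77 genes, 10 did, where chance gives about 1 in 20.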

How the results depend on the processing

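Genes called higher in Old than Adult numbered 0, but 1 with DESeq2, 1 with total-count scaling and 2 without O2 and O5, and 0 to 1 when 1 mouse was left out. Genes called lower numbered 1, but 0 with limma, without the filter, in the 10-mouse fit, with total-count or upper-quartile scaling and without O2 and O5, and 0 to 2 when 1 mouse was left out. Between PDX and Adult, 3 were called higher in the 10-mouse fit and 1 without O2 and O5. Lower were 1 with DESeq2, 6 in the 10-mouse fit and 5 without O2 and O5, and 0 to 4 when 1 mouse was left out. The cause was not tested. PDX over Old gave 0 calls in every alternative. The median of the 77 genes ranged from -0.219 to -0.0417 for Old over Adult, from -0.0221 to 0.177 for PDX over Old and from -0.0813 to -0.0302 for PDX over Adult when 1 mouse was left out, and was 0.0511, -0.076 and -0.0429 without O2 and O5. Total-count scaling moved the median of all genes in Old over Adult from 0.0678 to 0.159, with the members at -0.0775. Signs turned without O1 for Mrps28 (-0.0659, and up to 0.297 when another mouse was left out) and Mrps12 (-0.0227, and up to 0.288), whose values over all alternatives reached 0.455 and 0.483. The sign also turned for Mrpl34 between PDX and Old (-0.00528) without O2 and O5. The mice share numbers only. Correlations of deviations between same-numbered mice averaged -0.168 between Old and Adult (range -0.215 to -0.11). They averaged 0.092 between PDX and Old (-0.0389 to 0.285) and 0.031 between PDX and Adult (-0.0469 to 0.146). For mice of different numbers the means were 0.0435, -0.0225 and -0.0078 in the same order. With the replicate block 0 genes were called in Old over Adult, the median was -0.164, and no call was made in the other comparisons. In all, 560 of 600 values of named genes kept their direction and their side of the threshold. Nearly all of these values belong to results not called in the main fit, so that the total says little about how calls hold. The only call among them, Mrps18a in Old over Adult, was lost in 17 of its 24 alternatives. Counts were low for Mrpl53 and Mrpl23, and the cause was not tested. Of the 50-base runs in their transcripts, 82.0% and 11.6% also occur in transcripts of other genes.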
